A study of Mus musculus with 9 samples.

Results

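The replication-dependent histone genes encode the proteins around which newly made DNA is wrapped. They were taken as the protein-coding rows of the deposited table whose mouse symbol in GENCODE M21 begins with Hist1h, Hist2h, Hist3h or Hist4h, which gave 67 of 54532 genes. A further 3 pseudogenes with such symbols were left out. The 67 genes comprised 6 of the linker histone H1, 18 of H2A, 18 of H2B, 12 of H3 and 13 of H4. On GRCm38, 54 of them lie in the Hist1 cluster (chr13:21715763-23934851), 10 in the Hist2 cluster (chr3:96219865-96270132), 2 in the Hist3 cluster (chr11:58948920-58956830), and Hist4h4 alone on chr6:136801553-136804415.

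RNA had been sequenced from myeloid cells of C57BL/6 mice aged 6 to 8 weeks, in 9 libraries that form 3 groups of 3 lettered A, B and C. The fl and Gr_1 groups were labelled wild type and the KO group was labelled as a knockout of Socs3, a feedback inhibitor of cytokine signalling. The sources used here did not give what fl and Gr_1 stand for, or by which allele or promoter the knockout was made. The labels do not tie the letters to separate animals, so every p-value reflects just the scatter among these libraries, which may be technical in fl and Gr_1. The KO libraries differed in Xist and Y-linked RNA, as given below, and so were not repeats of 1 sample.

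A dividing cell makes most of its histone protein in S phase, and the genes used for it differ from nearly all other protein-coding genes in how their RNA ends. Their transcripts normally have no poly(A) tail and end a few bases after a conserved stem-loop, which the stem-loop binding protein Slbp holds during processing, translation and decay. Some of these genes can also be read past the stem-loop to a poly(A) site, a form known from cells that have left the cycle and differentiated. H2A, H2B, H3 and H4 form the nucleosome core and H1 binds the linker DNA between nucleosomes.

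The stem-loop was looked for in the GENCODE M21 transcripts of each gene by the histone stem-loop consensus, and a match was found for 46 of 67. The 16 bases of the match came in 8 versions, of which 1 was held by 26 genes. The stem-loops below are shown because their versions separate H4 from the other classes. They include genes on which the comparisons turn, and Hist1h2bb, Hist1h3g and Hist1h4j stand for further versions. The capitals mark the stem-loop, and up to 5 bases on either side are in lower case, 5′ to 3′ in the sense of the gene.
Hist1h1c: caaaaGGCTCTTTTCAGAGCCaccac
Hist1h2be: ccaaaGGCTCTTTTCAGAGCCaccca
Hist3h2ba: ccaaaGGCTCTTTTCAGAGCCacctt
Hist1h2bb: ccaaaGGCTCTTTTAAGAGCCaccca
Hist1h3g: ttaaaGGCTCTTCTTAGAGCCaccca
Hist1h4f: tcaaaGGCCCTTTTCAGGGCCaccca
Hist1h4i: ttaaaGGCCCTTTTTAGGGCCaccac
Hist1h4j: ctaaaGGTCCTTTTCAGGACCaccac
In the H1, H2A, H2B and H3 genes with a match the stem opened with GGCTC, and in the H4 genes with GGCCC or GGTCC. The stem-loop of Hist1h1c lies at chr13:23739512-23739527 on the plus strand, that of Hist3h2ba at chr11:58949349-58949364 on the plus strand, and that of Hist1h4f at chr13:23551291-23551306 on the minus strand.

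The gene models differed in where they stopped relative to the stem-loop, and this matters for the values because FPKM divides fragments by model length. Of the 67 models, 23 ended within 100 bases after the stem-loop, 23 ran on for more than 100 bases, 13 held the coding part only, and 8 held other sequence with no stem-loop found. Hist1h1c, for one, has a model of 1560 bases that runs 840 bases past its stem-loop, whereas that of Hist1h4f has 391 bases and ends 33 bases after it.

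Several facts of the libraries stand beside every result. The 9 libraries held 18.3 to 21.5 M recovered fragments. Socs3 was listed at 3.87, 4.02 and 3.40 FPKM in fl, 9.23, 6.76 and 8.37 in KO and 37.0, 36.6 and 33.0 in Gr_1, so the libraries labelled KO did not carry less Socs3 RNA than fl. Which part of the gene was deleted was not given, so this does not check the label. Of the libraries labelled KO, KO A carried 4 Y-linked genes at 26.5 FPKM in sum and Xist at 0.00280, KO B carried the Y-linked genes at 0 and Xist at 58.5, and KO C carried both, at 14.2 and 26.3. In fl and Gr_1 the 4 Y-linked genes were present in every library, with Xist at no more than 0.0104. Within groups, fl C lay apart from the others, with a mean chi-square per gene of 29.4 to fl A against 4.59 between fl A and fl B, and KO A and KO B were the pair farthest apart, at 44.9. Beyond the results without KO C given below, the part of these differences in the results was not tested.

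Most members were expressed at low levels, and a single H1 gene made up about as much as all others together. Of the 67 members, 7 were listed at 0 in all 9 libraries, 37 had a mean of at least 1 FPKM and 4 a mean of at least 10. Hist1h1c, the gene of the linker histone H1.2, took 50.4% of the summed FPKM of the members, and between 41.4% and 58.0% in single libraries. Hist1h4i, an H4 gene, came next with 9.83%, followed by the H2B genes Hist1h2bc with 5.45% and Hist1h2bg with 4.01%. The first 10 members together held 79.1% of the sum.

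**Figure D1:**
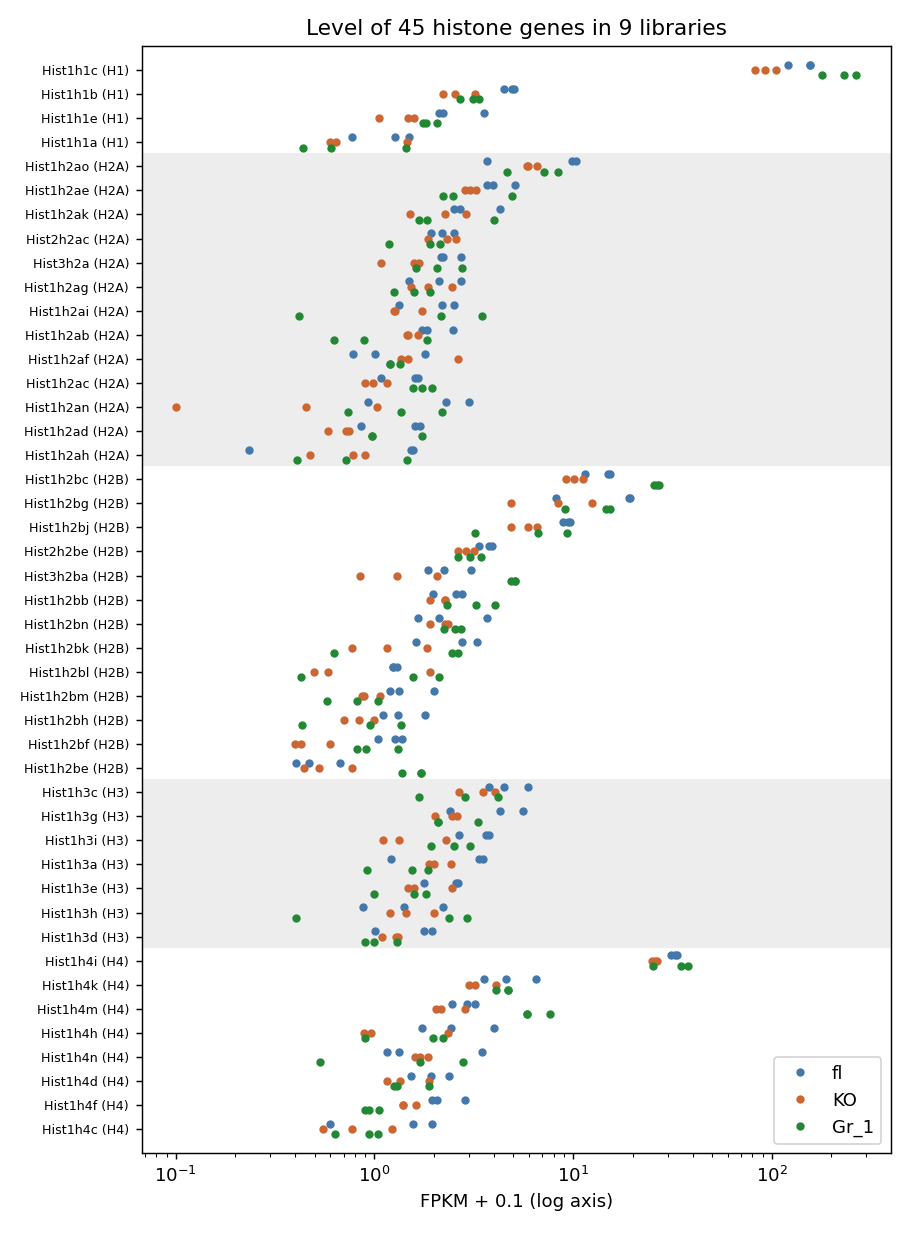
Level of the 45 histone genes that passed the filter, in FPKM + 0.1 on a log axis, with 1 point per library and colours for fl, KO and Gr_1; genes are grouped by class and ordered by mean level. Hist1h1c lies above all others, with all KO points under and all Gr_1 points over the fl points.

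Summed over all 67 members, the level was 334, 335 and 282 FPKM in fl, 227, 199 and 215 in KO and 403, 460 and 310 in Gr_1. All 3 KO sums lay below all fl sums, while Gr_1 C lay below fl A and fl B. The ratio of group means was 0.674 for KO against fl, from 317 ± 30.5 to 214 ± 13.9 (SD, n = 3 each), and 0.671 without KO C. For Gr_1, at 391 ± 75.9, the ratio to fl was 1.23, but without Hist1h1c it was 0.956. In bulk RNA, fewer cells that express these genes and less histone RNA per cell cannot be told apart.

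By class, the KO sum stood at 0.642 of the fl sum for H1, 0.732 for H2A, 0.646 for H2B, 0.684 for H3 and 0.756 for H4. The fl and KO libraries did not overlap in any class but H2A, where fl C, at 23.6 FPKM, lay between KO A at 23.1 and KO B at 24.1. In Gr_1 the class sums went apart, with a ratio to fl of 1.51 for H1, 1.163 for H2B, 0.982 for H4, 0.814 for H2A and 0.682 for H3. The H1 ratio followed Hist1h1c, with a mean of 226 of 232 FPKM in Gr_1 and 144 of 154 in fl. All other H1 members had lower means in Gr_1 than in fl. In H2B, Hist1h2bc alone made up 26.3 of 67.2 FPKM in Gr_1 and 13.8 of 57.8 in fl. Only the H1 sums of Gr_1 lay wholly above those of fl, at 237, 274 and 185 FPKM against 164, 165 and 132, and only the H3 sums lay wholly below.

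**Figure D2:**
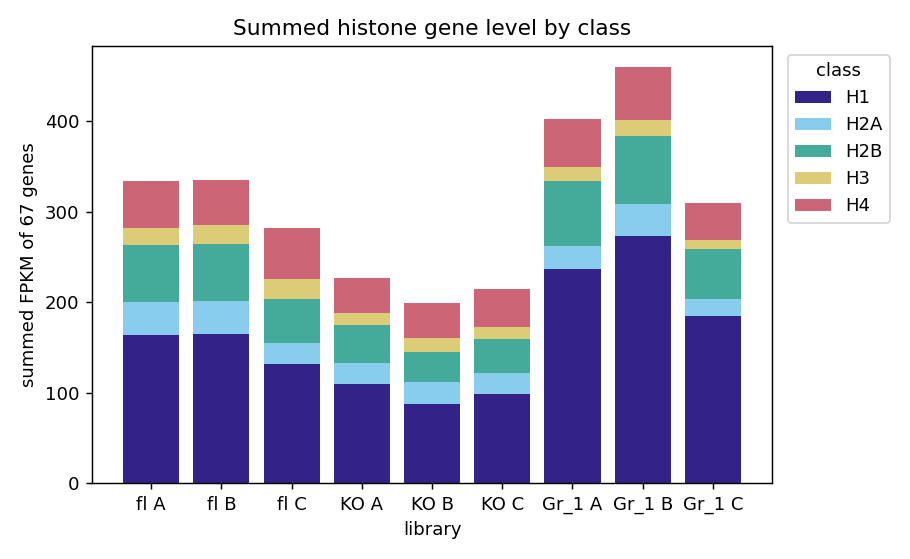
Summed FPKM of the 67 histone genes in each of the 9 libraries, stacked by class. The KO sums lie between 199 and 227 FPKM and the fl sums between 282 and 335, and the H1 part is the largest in every library.

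For single genes, log2(FPKM + 1) was fitted across all genes with limma, and a gene was called at a Benjamini-Hochberg adjusted p under 0.05 over all 12289 genes with at least 1 FPKM in 3 or more libraries. A total of 45 members passed that filter and 22 did not, of which 15 had values above 0. Hist1h2bm, with a third-highest value of 1.10 FPKM, was the lowest member inside the filter, and Hist1h4a, with 0.939, the highest outside. Members rested on few fragments, with a median of 24.1 per library over the 45 against 518 over all genes tested. The exact permutation test of 3 against 3 libraries cannot go below p = 0.1, and that was its two-sided value for each gene described as not overlapping.

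KO against fl asks how the libraries labelled as Socs3 knockout differed from the fl wild type. Here 6 of the 45 members tested fell (limma) and 0 rose, against 6.52% of all genes tested called lower and 4.48% higher. The 6 were the H1 genes Hist1h1b, Hist1h1c and Hist1h1e, the H2B genes Hist1h2bc and Hist1h2bf, and the H3 gene Hist1h3i. Of these, Hist1h2bf passed the filter only through fl and Gr_1, which favoured a fall. At an unadjusted p under 0.05, 17 members were lower and 0 higher by limma, and voom on recovered fragments called 4 lower and 0 higher. The shares of all genes tested under the unadjusted rule and by voom were not taken. Whether these counts depart from those of all genes was therefore not tested. The median log2 change of the 45 was -0.34, against -0.01 for all genes tested, and 41 of the 45 changes were negative. In 16 members all 3 KO libraries lay below all fl libraries and in 0 all lay above, where 17.9% of all genes tested had the first pattern and 13.5% the second. Both the 17 and the 16 include Hist1h2ad, Hist1h2bf and Hist1h2bm. The 17 also include Hist1h2an, and the 16 also include Hist1h2bh. None of these genes had a KO library at 1 FPKM or more. They were tested only through the other groups, which favoured a fall.

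Hist1h1c was measured at 156, 156 and 121 FPKM in fl and at 105, 82.4 and 92.9 in KO. Every KO library lay below every fl library, with KO A and fl C the nearest. The fitted log2 change was -0.62 ± 0.16 (SE; limma, adjusted p = 0.0454), at a mean of 93.6 ± 11.6 FPKM against 144 ± 20.1 (SD, n = 3 each). The call was lost without fl A, fl B, KO B, KO C or Gr_1 A. It was also lost with no filter, with quantile normalization and with FPKM rescaled without the 10 most abundant genes.

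Hist1h1b, which encodes H1.5, stood at 4.83, 4.41 and 4.95 FPKM in fl and at 2.44, 2.10 and 3.09 in KO. The groups did not overlap, and the lowest fl library was well above the highest KO library. It had the smallest adjusted p among the members in this comparison, with a log2 change of -0.70 ± 0.11 (SE; limma, adjusted p = 0.00574), and was called without each single library in turn. Hist1h1e, the gene of H1.4, was at 2.12, 2.02 and 3.47 FPKM in fl and 1.38, 0.953 and 1.48 in KO. The 3 KO values were the lowest, and fl C stood apart above fl A and fl B. Its log2 change was -0.62 ± 0.16 (limma, adjusted p = 0.0415), but the call was lost when any of the 9 libraries was left out, with no filter and in a fit of only fl and KO. Its model shares bases with that of Hist1h2be on the same strand, so that fragments in the shared stretch belong to either gene.

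Hist1h2bc, the most abundant H2B gene, was at 14.9, 15.2 and 11.4 FPKM in fl and 10.01, 9.11 and 11.1 in KO. The groups did not overlap, but KO C and fl C were nearly level. The log2 change was -0.41 ± 0.11 (limma, adjusted p = 0.0484), and the call held without fl C and was lost without any other single library. It was also lost with no filter, with either other scaling, with the replicate block and in a fit of only fl and KO. Hist1h2bf fell by 0.63 ± 0.13 on the log2 scale (limma, adjusted p = 0.0172), from 1.28, 0.940 and 1.17 FPKM to 0.328, 0.299 and 0.499, with groups that did not overlap. This rests on 32 fragments in fl and 11 in KO, and the gene passed the filter only through fl and Gr_1, so that it was not tested without fl A, fl C or Gr_1 A or in a fit of only fl and KO. The filter thus favoured a fall in KO, and the call is given as a description. Voom did not call it.

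Hist1h3i had the largest log2 change among the called members, at -0.80 ± 0.20 (SE; limma, adjusted p = 0.0347). Its values were 3.54, 2.58 and 3.68 FPKM in fl and 2.20, 1.007 and 1.23 in KO. The KO libraries lay below the fl libraries, with KO A nearest to them. The call was lost without fl A, fl C, KO B, KO C or Gr_1 A, with no filter, in a fit of only fl and KO, and by voom. Only 42.9% of its 125-base windows occurred in no other gene, so part of its fragments could have come from other H3 genes.

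The leading members of the other classes were not called. Hist1h4i, at 32.4, 31.1 and 33.3 FPKM in fl and 25.8, 25.0 and 26.5 in KO, did not overlap between groups but missed the threshold, with a log2 change of -0.31 ± 0.13 (limma, adjusted p = 0.164). Hist1h4f missed it narrowly, at 2.20 ± 0.497 against 1.37 ± 0.138 FPKM (limma, adjusted p = 0.0556). The second H2B gene, Hist1h2bg, overlapped between groups, at 19.1, 19.3 and 8.14 FPKM in fl and 12.4, 4.76 and 8.33 in KO. Hist1h2ao, the leading H2A gene, had 10.2, 9.83 and 3.61 in fl and 6.50, 5.75 and 5.84 in KO, so fl C lay below all KO libraries. Hist1h3c, the leading H3 gene, had 4.4005, 3.67 and 5.84 in fl and 2.56, 3.94 and 3.43 in KO, and the groups overlapped. Of the second members by level, Hist1h2ae stood at 3.87, 4.99 and 3.61 in fl and 3.15, 2.74 and 2.94 in KO, which did not overlap, while Hist1h3g, at 2.32, 4.18 and 5.51 against 2.37, 2.52 and 1.91, and Hist1h4k, at 6.41, 4.48 and 3.47 against 2.90, 3.10 and 3.98, did.

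The count of falls depended on single libraries. It was 2 without KO C, the library with both Xist and Y-linked RNA, 2 without KO B or fl A, 3 without fl B and 1 without Gr_1 A, and 0 members rose in each of these. The median change stayed between -0.39 and -0.27 when any single library was left out.

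**Figure D3:**
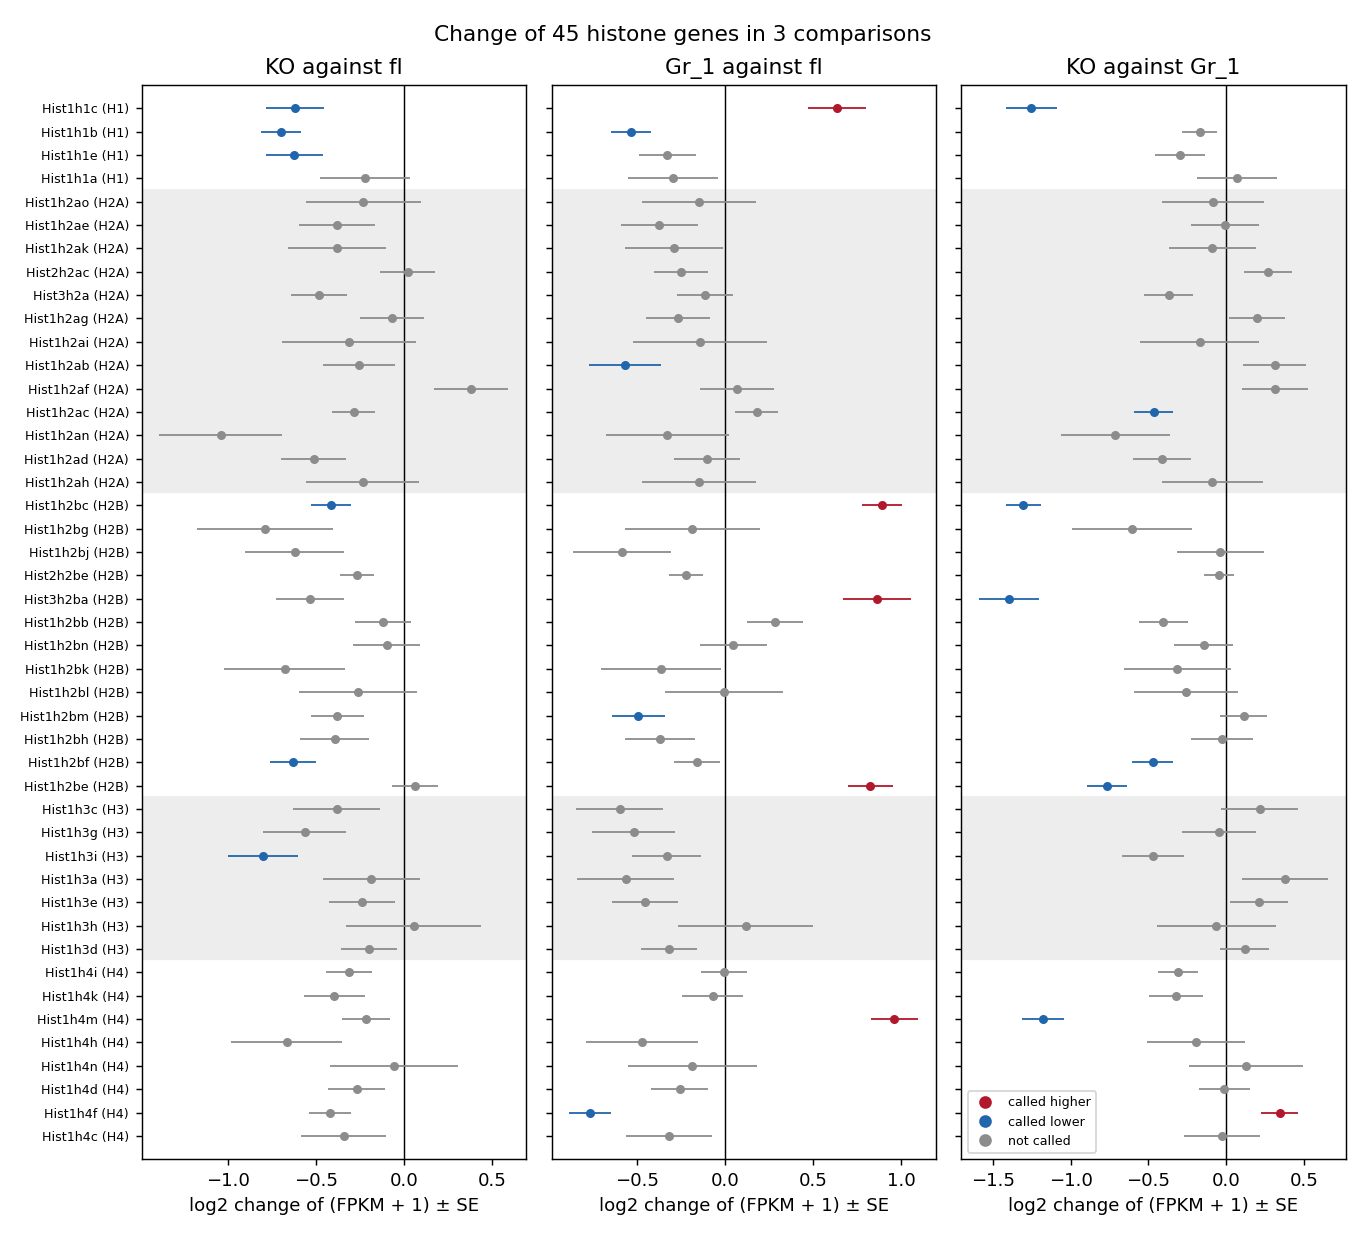
Fitted log2 change of (FPKM + 1) with its standard error for the 45 histone genes tested, by class, in KO against fl, Gr_1 against fl and KO against Gr_1; red marks genes called higher, blue genes called lower and grey genes not called. In KO against fl nearly all points lie left of 0, while in Gr_1 against fl 5 genes stand apart on the right.

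Gr_1 against fl compares both wild-type groups. In Gr_1, 5 of the 45 members rose and 4 fell (limma). Calls were common over all genes in this comparison, with 30% of the genes tested called higher and 31.4% lower, and the members' shares, 11.1% and 8.89%, lay below these. The 5 that rose were the H1 gene Hist1h1c, the H2B genes Hist1h2bc, Hist1h2be and Hist3h2ba, and the H4 gene Hist1h4m, and the 4 that fell were Hist1h1b, Hist1h2ab, Hist1h2bm and Hist1h4f. Of these, Hist1h2be passed the filter only through Gr_1 and Hist1h2bm only through fl, which fixed their directions. Hist1h4f passed it only through fl and KO, which favoured a fall in Gr_1. The median log2 change of the 45 was -0.25, against -0.03 for all genes tested. All 3 Gr_1 libraries lay above all fl libraries in 5 members, against 32.7% of all genes tested, and below them in 4, against 34.8%.

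Hist1h2bc, which fell in KO, rose in Gr_1, to 25.4, 27.0 and 26.5 FPKM from the fl values of 14.9, 15.2 and 11.4. The Gr_1 libraries lay close together and far above all others. The ratio of means was 1.90 and the log2 change 0.89 ± 0.11 (SE; limma, adjusted p = 0.000166). Its model has 2 exons and spans chr13:23684199-23692908, with no stem-loop found in it.

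Hist1h1c reached 232, 267 and 180 FPKM in Gr_1, 0.64 ± 0.16 higher on the fitted log2 scale (limma, adjusted p = 0.00851) than the fl values of 156, 156 and 121. Gr_1 C was the lowest of its group, yet above all fl libraries. Hist3h2ba, an H2B gene of the small Hist3 cluster with no window shared with another gene, was at 2.15, 2.98 and 1.76 FPKM in fl and at 4.78, 5.02 and 4.98 in Gr_1. The groups were far apart, with a ratio of means of 2.15 and a log2 change of 0.86 ± 0.19 (limma, adjusted p = 0.00409).

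Hist1h2be rose from 0.368, 0.574 and 0.304 FPKM to 1.61, 1.62 and 1.28, a 3.62-fold ratio of means and a log2 change of 0.83 ± 0.13 (limma, adjusted p = 0.000564). The gene passed the filter only through Gr_1 and so had to be high there. Its model covers 4446 bases of exon, runs 1861 bases past the stem-loop and overlaps Hist1h1e, which was not called, at 1.97, 1.71 and 1.65 FPKM in Gr_1. Hist1h4m went from 2.37, 3.12 and 2.83 to 7.60, 5.75 and 5.75 FPKM, without overlap, at a log2 change of 0.96 ± 0.13 (limma, adjusted p = 0.000305). Only 12.9% of its windows were unique, the others being shared with Hist1h4i and Hist1h4n, so its value is uncertain.

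Of the members that fell in Gr_1, Hist1h4f dropped from 1.98, 1.85 and 2.77 FPKM to 0.957, 0.845 and 0.799, with groups well apart and a fitted difference of -0.77 ± 0.12 on the log2 scale (limma, adjusted p = 0.000555). It rests on 52 fragments in fl and 17 in Gr_1. No Gr_1 library reached 1 FPKM, so the gene passed the filter only through fl and KO. The filter thus favoured a fall in Gr_1, and the call is given as a description. Hist1h1b, lower in KO as well, was at 2.60, 3.04 and 3.28 FPKM in Gr_1 against 4.83, 4.41 and 4.95 in fl, which did not overlap (log2 change -0.53 ± 0.11; limma, adjusted p = 0.00322).

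Hist1h2ab, an H2A gene, was at 1.63, 1.73 and 2.40 FPKM in fl and at 0.791, 1.75 and 0.528 in Gr_1. Here Gr_1 B lay above fl A and fl B, so the groups overlapped. The adjusted p was 0.0365 (limma), and the call was lost without fl B, fl C, KO C, Gr_1 A or Gr_1 C. It was also lost with no filter, with the replicate block, in a fit of only fl and Gr_1, and by voom. Hist1h2bm had 1.91, 1.10 and 1.24 in fl and 0.714, 0.946 and 0.477 in Gr_1. It was tested only because all 3 fl values reached 1 FPKM, so it had to be high in fl, and its call is given as a description. It was not called without Gr_1 C or by voom.

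Among the leading members not called in Gr_1, Hist1h4i stood at 34.8, 37.8 and 25.2 FPKM, around the fl values, with a log2 change of -0.00 ± 0.13. Hist1h2bg was at 14.6, 15.2 and 8.99, Hist1h2ao at 7.02, 8.26 and 4.55, and Hist1h4k at 4.60, 4.59 and 4.003, each within the range of fl or overlapping it. Hist1h2ae had 2.39, 4.85 and 2.13, Hist1h3c 2.77, 4.11 and 1.59, and Hist1h3g 2.001, 3.22 and 2.003, with Gr_1 B the highest and overlapping fl in each.

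The number that rose was 4 to 5 when any single library was left out. The number that fell was 2 without fl B or Gr_1 C and 9 without Gr_1 B. With FPKM rescaled without the 10 most abundant genes, 5 members rose and 9 fell in place of 5 and 4.

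KO against Gr_1 shares its libraries with both comparisons above and adds no independent samples. Of the 45 members 1 was called higher in KO and 7 lower, where 26.7% of all genes tested were higher and 28.9% lower. The 7 were Hist3h2ba, Hist1h2bc, Hist1h1c, Hist1h4m, Hist1h2be, Hist1h2bf and the H2A gene Hist1h2ac. Of these, Hist1h2be passed the filter only through Gr_1, which fixed its direction. Hist1h2bf passed it only through fl and Gr_1, which favoured a lower value in KO. Hist3h2ba, at 1.97, 0.749 and 1.198 FPKM in KO and 4.78, 5.02 and 4.98 in Gr_1, had the largest difference, with a log2 change of -1.40 ± 0.19 (limma, adjusted p = 0.00041). The groups were far apart, as they were for Hist1h2bc (-1.30 ± 0.11; adjusted p = 4.98e-05) and Hist1h1c (-1.25 ± 0.16; adjusted p = 0.000311).

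Hist1h4m, at 2.75, 2.06 and 1.94 FPKM in KO, was below all Gr_1 libraries (log2 change -1.18 ± 0.13; limma, adjusted p = 0.000161). Hist1h2be, at 0.668, 0.424 and 0.341 in KO, was as well (-0.76 ± 0.13; limma, adjusted p = 0.00115), and without any single Gr_1 library it was below the filter. For Hist1h2bf, Gr_1 was at 1.22, 0.717 and 0.813 FPKM, above all KO libraries (limma, adjusted p = 0.0139), and it was not tested without fl A, fl C or Gr_1 A. Hist1h2ac had 1.501, 1.55 and 0.981 FPKM in fl, 1.05, 0.797 and 0.889 in KO and 1.63, 1.84 and 1.46 in Gr_1. The KO libraries lay below those of Gr_1 without overlap (log2 change -0.47 ± 0.12; limma, adjusted p = 0.011), and fl lay across both.

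The member called higher in KO than in Gr_1 was Hist1h4f, at 1.29, 1.53 and 1.29 FPKM (log2 change 0.34 ± 0.12; limma, adjusted p = 0.0356). Hist1h4f passed the filter only through fl and KO, which favoured a higher value in KO than in Gr_1. All KO libraries lay between those of Gr_1 and fl, but the call was lost without any single KO or Gr_1 library, with no filter, with the replicate block and by voom. The median log2 change of the 45 was -0.09, against 0.01 for all genes tested. Rescaling without the 10 most abundant genes moved the median of all genes to 0.16 and the members' median to 0.01, or -0.15 relative to all genes. Without Gr_1 B the members' median was 0.02, so the sign of the median in this comparison depended on the scaling and on that library.

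The called members were then set against the ends of their gene models. Of the 5 that rose in Gr_1, 3 have models that run more than 100 bases past the stem-loop (Hist1h1c, Hist1h2be and Hist3h2ba), 1 has a model of 2 exons without a stem-loop (Hist1h2bc), and 1 ends 3 bases after it (Hist1h4m). Of the 4 that fell, 3 have models that end within 100 bases after the stem-loop (Hist1h2ab, Hist1h2bm and Hist1h4f), and for Hist1h1b no match was found. Since the filter fixed the directions of Hist1h2be and Hist1h2bm and favoured a fall in Hist1h4f, none of these bears on this split. The share called higher among the long models, 21.4% with Hist1h2be counted, lay below the 30% of all genes tested. The share called lower among the short models, 17.6% with Hist1h2bm and Hist1h4f counted, lay below the 31.4%. Hist1h1d, an H1 gene below the filter with a long model, was called lower in Gr_1 when no filter was applied.

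In Gr_1 against fl the median log2 change was -0.36 for the 17 members that end near the stem-loop, -0.22 for the 14 that run past it, -0.11 for the 10 with the coding part only and -0.26 for the other 4. In KO against fl the 4 medians lay close together, at -0.38, -0.36, -0.29 and -0.34. FPKM over a whole model does not tell which end a fragment came from, so the form of the transcripts was not measured here.

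**Figure D4:**
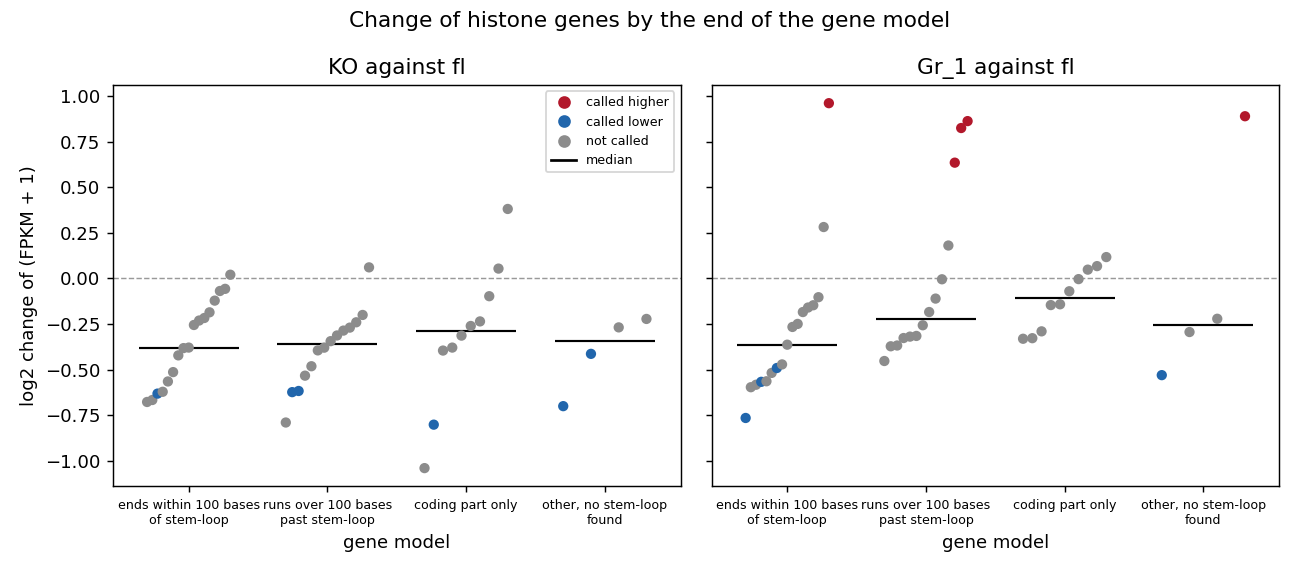
Log2 change of (FPKM + 1) of the 45 tested histone genes in KO against fl and Gr_1 against fl, by where the gene model stops relative to the stem-loop; 1 point per gene, black lines at the medians, red and blue for genes called higher and lower. The medians in KO against fl lie between -0.38 and -0.29, and those in Gr_1 against fl between -0.36 and -0.11.

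Histone genes of a class are near-copies of each other, which limits what short fragments can tell about 1 member. Over 125-base windows, the shorter read length in the labels, the median member had 71.6% of its windows in no other GENCODE M21 gene, and 42 members had at least 50%. Of the 7 members listed at 0 throughout, 5 had no unique window (Hist2h2aa1, Hist2h2aa2, Hist2h2bb, Hist2h3b and Hist2h3c1), being identical to or overlapping another gene. For these 5 a value of 0 says nothing about expression, since how fragments of several origins were counted was not stated. The other 2, Hist1h2aa and Hist1h2ba, are histone genes known from germ cells and had 98.1% and 79.6% unique windows. Taking the 32 tested members with at least 50% unique windows, 5 fell (15.6%) and 0 rose in KO against fl. Over all genes tested, 6.52% were called lower and 4.48% higher there. In Gr_1 against fl 4 rose and 4 fell (12.5% each), below the 30% and 31.4% of all genes tested. These counts include Hist1h2bf, Hist1h2be, Hist1h2bm and Hist1h4f, whose directions the filter fixed or favoured.

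**Figure D5:**
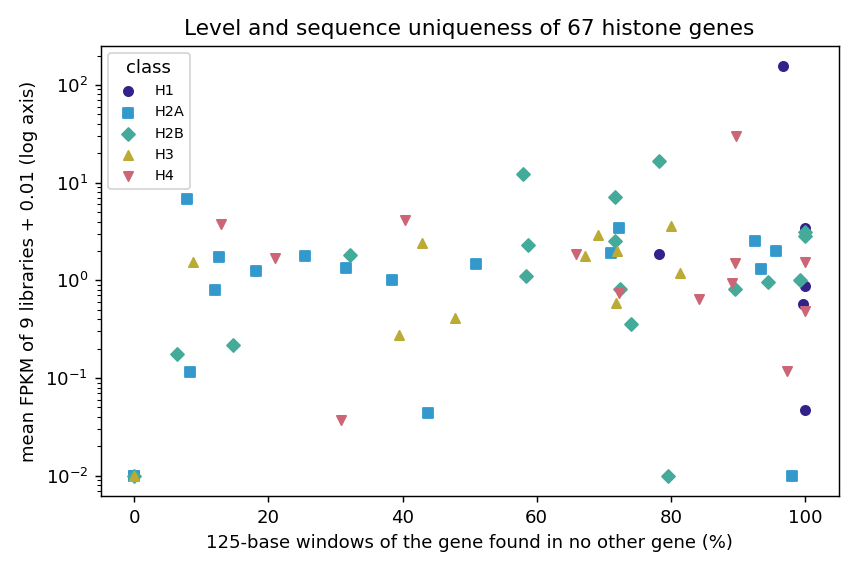
Mean FPKM of the 67 histone genes over 9 libraries, plus 0.01 on a log axis, against the percentage of their 125-base windows found in no other gene, by class. The 5 genes at 0% are all listed at 0 FPKM, while Hist1h1c combines the highest level with 96.7% unique windows.

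Below the filter, Hist1h2bq and Hist1h2br, a pair of H2B genes with 6.40% and 14.7% unique windows, also had their highest values in Gr_1; these and Hist1h1d were chosen after their values were seen. Hist1h2br was at 0.592, 0.423 and 0.593 FPKM there, on 59 fragments, against 3 fragments in all of fl and 9 in KO. Hist1h2bq had 34 fragments in Gr_1, 13 in fl and 8 in KO. Both were called higher in Gr_1 than in fl when no filter was applied. Hist1h1d, also called with no filter, went the other way, at 0.857, 0.681 and 0.903 FPKM in fl, 0.393, 0.514 and 0.477 in KO and 0.471, 0.430 and 0.336 in Gr_1, on 369, 218 and 154 fragments. Its fl libraries lay above all others. The other 12 members with values above 0 but below the filter reached at most 1.40 FPKM in any library.

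The promoters of the members share letters that histone genes are known for. RefSeq (GRCm38.p6) gave a promoter, from 250 bases before to 50 after the start, for 61 of the 67. On either strand, CCAAT occurred in 52 of the 61, against 37.9% of 27025 promoters of the same length, and was found in all H1, H2A, H2B and H3 promoters and in 3 of 12 H4 promoters. TATAAA occurred in 35 of 61, against 14.2% of all. The octamer ATTTGCAT, bound by Oct-1, was found in 7 of 17 H2A and 6 of 16 H2B promoters and in no others, against 1.75% of all. AAACACA, known from H1 genes, was found in 5 of 6 H1, 2 of 17 H2A and 2 of 16 H2B promoters, against 7.14% of all. Some H2A and H2B promoters overlap on opposite strands, as those of Hist1h2aa and Hist1h2ba do, so that 1 site can count in both classes.

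The 150 bases before the RefSeq start are printed for 4 called members, 2 of H1 that changed in opposite directions in Gr_1 and 1 each of H2B and H4, with matches to these motifs in capitals (ATTGG is CCAAT on the other strand).
Hist1h1c, chr13:23738657-23738806, plus strand: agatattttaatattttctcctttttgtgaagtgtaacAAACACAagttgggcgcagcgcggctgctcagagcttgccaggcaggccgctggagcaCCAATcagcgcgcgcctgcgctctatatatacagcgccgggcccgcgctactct
Hist1h1b, chr13:21780626-21780775, minus strand: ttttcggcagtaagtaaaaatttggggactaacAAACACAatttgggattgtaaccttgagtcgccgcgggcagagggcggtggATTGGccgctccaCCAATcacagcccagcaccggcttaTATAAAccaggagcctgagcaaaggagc
Hist1h2bf, chr13:23574208-23574357, minus strand: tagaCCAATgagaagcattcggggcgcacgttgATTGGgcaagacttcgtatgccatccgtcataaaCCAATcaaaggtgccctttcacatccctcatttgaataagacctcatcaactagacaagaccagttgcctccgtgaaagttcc
Hist1h4f, chr13:23551669-23551818, minus strand: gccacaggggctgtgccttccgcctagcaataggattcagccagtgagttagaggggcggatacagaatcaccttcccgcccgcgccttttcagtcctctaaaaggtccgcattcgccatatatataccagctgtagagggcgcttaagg
Both H1 genes carry AAACACA and CCAAT, whether they rose in Gr_1 (Hist1h1c) or fell (Hist1h1b). A match is a description of letters and was not tied to binding of any factor in these cells.

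Genes that make, process, carry or replace these histones behaved as follows. Of 19 tested genes for transcription and 3′ processing of histone mRNA, 0 were called in KO against fl by limma or voom (1 higher and 0 lower at an unadjusted limma p under 0.05), where Srrt and Upf1, the 2 most abundant, had log2 changes of -0.01 and -0.10. In Gr_1 against fl 3 rose and 9 fell, with Tut7, a uridylyl transferase that acts on histone mRNA in decay, at 1.23 ± 0.11 and Lsm10, a subunit of the U7 particle, at 0.53, and with Ncbp2, of the cap-binding complex, at -0.70 and the exonuclease gene Eri1 at -0.48. In KO against Gr_1, 7 were higher and 3 lower. Among all genes tested, 30% were called higher and 31.4% lower in Gr_1 against fl, and 26.7% and 28.9% in KO against Gr_1. Slbp, named because it binds the stem-loop, stood at 21.6 FPKM in fl, 21.8 in KO and 16.8 in Gr_1, and was among the 9 (limma, adjusted p = 0.00449).

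Of 20 histone chaperones 1 fell in KO against fl, the H3.3 chaperone Daxx (log2 change -0.37; limma, adjusted p = 0.0338), and 10 fell and 0 rose in Gr_1 against fl, led by the FACT subunit gene Ssrp1 (-0.68) and the chromatin assembly factor gene Chaf1a (-0.75). Against Gr_1, KO had 12 chaperones higher and 1 lower. The shares of all genes tested were 30% higher and 31.4% lower in Gr_1 against fl, and 26.7% and 28.9% in KO against Gr_1. They were 4.48% higher and 6.52% lower in KO against fl. Among 10 tested histone variants listed as replication-independent, whose making is not confined to S phase, 3 fell in KO against fl: H2afj (-0.39), H3f3b (-0.45) and, named to complete the count after its values were seen, H1f0 (-0.75). In Gr_1, H3f3a rose (0.35) and 5 variants fell, H2afz (-0.34) and H2afy (-0.36) with the smallest adjusted p. Their summed level was 1584 FPKM in fl, 1305 in KO and 1454 in Gr_1, above that of the replication-dependent genes in every group.

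Of 22 S phase genes, which are transcribed when these histones are made, 0 were called in KO against fl by limma or voom (0 at an unadjusted limma p under 0.05), with the abundant Pcna and Rrm2 at log2 changes of -0.09 and 0.02. In Gr_1 against fl, 21 of the 22 fell, where 31.4% of all genes tested were called lower. Of 13 mitosis genes 0 were called in KO against fl by limma or voom (0 at an unadjusted limma p under 0.05) and 7 fell in Gr_1. Against Gr_1, KO had 22 of 22 S phase genes and 7 of 13 mitosis genes higher and 0 lower, where 26.7% of all genes tested were higher.

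Of 11 RNAs known to lack a poly(A) tail, 5 were listed at 0 in all libraries and only Rn7sk and Rnu12 were tested. Rn7sk, the 7SK RNA, had 8.97 FPKM in fl, 3.27 in KO and 2.45 in Gr_1 with a wide spread in fl (SD 11.5), and Rnu12 was lower in Gr_1 than in fl (log2 change -1.08; limma, adjusted p = 0.00266). How RNA was selected for the libraries was not stated, and the part of tail selection in the members' values was not tested.

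Marker genes of cell types differed between the groups as well. Of the markers tested, all 9 of late neutrophils rose and all 7 of early granulocytes fell in Gr_1 against fl, with summed levels of 126201 to 130172 against 44029 to 46321 FPKM and of 524 to 663 against 4917 to 7018. In KO against fl, 7 of 9 late neutrophil markers rose, to a sum of 48537 to 70907, and 0 of 7 early granulocyte markers were called by limma or voom, or had an unadjusted limma p under 0.05. Of 8 monocyte markers 5 fell in KO and 7 in Gr_1, where 1 rose. Neutrophil and monocyte markers, which belong to myeloid cells, were present in every group, and no marker was at 0 throughout. Markers of other cells were present too: 4 of 4 of basophils and mast cells, 3 of 3 of NK cells, 2 of 2 of T cells, 2 of 4 of progenitors, 1 of 3 of dendritic cells and 1 of 5 of erythroid cells rose in KO against fl. None of 7 of B cells and 2 of epithelial and tumour cells did (limma; 0 and 2 at an unadjusted p under 0.05, 0 and 1 by voom). The summed basophil and mast cell markers were at 37.5 to 78.7 FPKM in fl, 131 to 185 in KO and 33.6 to 63.9 in Gr_1, and the B cell markers at 62.2 to 80.6, 38.6 to 76.5 and 287 to 312. In Gr_1 against fl, 7 of 7 of B cells, 5 of 5 of erythroid cells and 1 of 2 of T cells rose, 1 of 3 of NK cells and 2 of 4 of progenitors fell, and of 3 of dendritic cells 1 rose and 1 fell. Among all genes tested, 4.48% were called higher and 6.52% lower in KO against fl, and 30% and 31.4% in Gr_1 against fl. The part of the marker shifts in the members' values was not tested.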

How the data were processed

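Paired-end RNA sequencing had been done on total RNA, per the labels' protocols. The authors deposited 1 table of FPKM values per gene and library, per the file headers. The submitters' processing notes name featureCounts (1.5.0-p3) and DESeq2 (1.16.1), with no role. The aligner, the strand setting and the handling of reads with several origins were not given in the sources used here. Multiplying FPKM by GENCODE M21 exon length gave whole fragments (within 0.02) for all members' values. The FPKM denominators followed size factors, the median over genes of each library's ratio to the geometric mean, within 0.000224 on the log2 scale. Beside the fragment totals they were lower in Gr_1 (-0.222 to -0.194 on the log2 scale) than in fl (0.0366 to 0.113) and KO (0.0838 to 0.168). This raises FPKM in Gr_1 beside a scaling by totals. At 1 kilobase of exon, 3 fragments correspond to 0.136 to 0.187 FPKM, which covers counting error only.

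One fit in limma (3.58.1, under R 4.3.3) took in all 9 libraries, with a trended prior variance and 6 residual degrees of freedom, and was tested on simulated data. All tests are two-sided. Errors of levels are SD over 3 libraries and those of log2 changes are SE. Log2 changes understate the change of low genes because of the pseudocount of 1.

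Values of every library are given for the 2 most abundant members per class and for called members with at least 1 FPKM in the higher group (up to 8 per direction). From each pathway list, the 2 called genes per direction with the smallest adjusted p are named, or the 2 most abundant. The members, lists and tests were chosen with earlier results of these data known.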

Additional observations from a re-analysis of the deposited data

How the results depend on the processing

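Same-letter correlations of deviations from the group means ran from -0.06 to 0.14, and those between unlike letters from -0.13 to 0.08. Such values cannot settle whether libraries of 1 letter were paired. With the letter as a replicate block, 5 members fell in KO against fl, 5 rose and 5 fell in Gr_1 against fl, and 0 were higher and 8 lower in KO against Gr_1. Without a filter, 2 members fell in KO against fl and 0 were higher in KO than in Gr_1. With a filter of 5 FPKM, 2 fell in KO against fl, 3 rose and 0 fell in Gr_1 against fl (median -0.0047), and 0 were higher and 3 lower in KO against Gr_1 (median -0.61), with fewer members tested. Rescaling without the 10 most abundant genes gave 9 falls in Gr_1 against fl and 2 members higher in KO than in Gr_1, and called 815 genes higher and 578 lower in KO against fl (551 and 801 as reported) and 4819 and 2532 in KO against Gr_1 (3287 and 3556). Voom on recovered fragments gave a median of -0.50 in KO against fl, 2 falls in Gr_1 against fl and 0 members higher in KO than in Gr_1. A fit of only fl and KO called 797 genes. Leaving out 1 library gave 1 to 6 falls and 573 to 1261 called genes in KO against fl, 2 to 9 falls in Gr_1 against fl, and 0 to 1 members higher in KO than in Gr_1. Without Hist1h1c summed FPKM had ratios of 0.956 (Gr_1 to fl) and 0.727 (KO to Gr_1). Of 100 refits of single called members in KO against fl 41 lost the call, of 150 in Gr_1 against fl 11 did and of 132 in KO against Gr_1 10 did, and none changed sign. In 32 further refits the member was no longer tested. The cause of these changes was not tested. Tested members had a median of 24.1 fragments per library.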
